A study of Mus musculus with 8 samples.

Results

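The S100 calcium-binding proteins described here are 10 mouse genes, S100a1, S100a4, S100a6, S100a8, S100a9, S100a10, S100a11, S100a13, S100a16 and S100b. They were chosen by the gene name that the array files give to each non-control probe, and the rule itself uses no measured value, though the family was picked with earlier results of these data known. They were read by 13 of 55681 probes, and all 10 were among the 25127 genes tested. Kidneys of CD-1 mice, an outbred strain, were compared after tacrolimus at 1 mg/kg per day for 28 days and after physiological serum as the control. Tacrolimus is an immunosuppressant that inhibits the phosphatase calcineurin and can injure the kidney. Total RNA of the whole kidney was labelled with Cy3 and read on 8 single-colour arrays, 4 control and 4 tacrolimus. The labels used here give no age, sex or route, and do not say whether a sample came from 1 animal or from several, so each p-value covers only the variation among these samples, which may be technical.

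S100 proteins are small proteins of the EF-hand family, in which a calcium ion is held in a loop between a pair of helices. Most form dimers, and calcium binding uncovers a surface through which they bind other proteins such as annexins. Some act inside the cell on the cytoskeleton, membranes and calcium handling. Others, S100a8 and S100a9 above all, are also released and are known as signals at the receptors TLR4 and RAGE. In the kidney, S100 transcripts can come from tubule cells, from interstitial fibroblasts and from leukocytes, as well as from the fat and nerve that surround the organ.

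Some probes of the family held a short stretch of bases in common. The sequences of 4 probes, one each for S100a1, S100a4, S100a6 and S100a8, are shown because they share the stretch TTCNAGGAGT, printed in capitals, which falls in the coding sequence at the end of a calcium-binding loop. It was picked from the probes as the pattern of 10 bases, 1 of them open, held by the most of these genes, so its frequency among them is a description. Each is a 60-base probe read 5′ to 3′ from the array files.
S100a1: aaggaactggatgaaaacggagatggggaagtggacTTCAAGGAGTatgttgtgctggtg
S100a4: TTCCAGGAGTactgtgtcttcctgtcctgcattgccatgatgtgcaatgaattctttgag
S100a6: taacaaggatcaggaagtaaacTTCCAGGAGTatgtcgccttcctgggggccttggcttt
S100a8: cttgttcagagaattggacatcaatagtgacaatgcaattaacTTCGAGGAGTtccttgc
Read in the printed direction, the stretch was present in 4 of 13 probes of the S100 genes, or 30.8%, against 21 of 55681 probes of the array, or 0.0377%. On the opposite strand it was present in 0 of the 13 and in 21 of the 55681, so that 42 probes, or 0.0754%, held it on either strand. Over the 75 pairs of probes that read different S100 genes, the longest identical run had a median of 6 bases. It reached 11 bases between S100a4 and S100a6, where it covers the printed stretch. Runs between probes of unrelated genes were not measured, so these lengths are a description only. The S100a4 and S100a1 probes shown here are the dimmer of the pair that reads each gene, and the values below come from the brighter probe unless the further probe is named.

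In build mm9, the build of the array files, 9 of the 10 genes were read on chromosome 3 and S100b on chromosome 10. The probes lay at chr3:90314959-90315018 for S100a1, chr3:90328442-90328501 for S100a13, chr3:90346875-90346934 for S100a16 and chr3:90409908-90409967 for S100a4. They were followed by chr3:90418160-90418219 for S100a6, chr3:90473778-90473837 for S100a8 and chr3:90496573-90496632 for S100a9. The S100a11 and S100a10 probes lay farther along, at chr3:93330022-93330081 and chr3:93368437-93368496, and the S100b probe at chr10:75723783-75723842. Gene models of mm9 were not used here.

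Every one of the 13 probes was well above background on all 8 arrays. No saturated spot was listed, 64.0% to 69.8% of non-control spots were well above background on each array, and the correlation between arrays over the tested probes ran from 0.982 to 0.993. All 12 kidney markers of a fixed list (Umod, Slc34a1, Nphs1, Aqp2 and others) were measured. Their median difference was −0.12, against −0.05 over all genes, and 9 of the 12 had a lower mean after tacrolimus. In 1 of them, Aqp1 (−0.23 ± 0.09), the groups did not overlap, as in 5.75% of all genes with tacrolimus lower. Control and tacrolimus arrays lay in different rows of the slide, so that the row and the drug cannot be told apart. Local background was lower on all tacrolimus arrays (19.3 to 20.5) than on any control array (21.8 to 22.1). Each level below is a log2 signal from which the array's own 75th percentile was subtracted, and a difference is the mean of the tacrolimus arrays minus that of the control arrays on this log2 scale. Levels of different probes were not set against one another.

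Among the 10 genes, S100a6 had the lowest p, with a mean 2.15 times as high after tacrolimus. S100a4 had a smaller difference with groups that did not overlap. S100b had the largest mean difference, but was higher on some tacrolimus arrays only, the calgranulins S100a8 and S100a9 were lower on average, and S100a1, S100a10, S100a11, S100a13 and S100a16 differed by less than 0.1 log2 units. By limma with Benjamini-Hochberg adjustment over all genes, 0 of the 10 S100 genes passed an adjusted p of 0.05, where 57 of all genes, or 0.227%, did (0.187% higher and 0.0398% lower). At an unadjusted p of 0.05, 3 of the 10 passed, S100a6, S100b and S100a4, all of them higher in tacrolimus kidneys. The same threshold was passed by 15.5% of all genes, 7.04% in the higher and 8.42% in the lower direction. In 2 of the 10, S100a6 and S100a4, no tacrolimus array overlapped a control array, against 10.1% of all genes in either direction, 4.35% with tacrolimus higher and 5.75% with it lower. The median difference was −0.03 over the S100 genes and −0.05 over all genes. Leaving out control replicate 3, tacrolimus replicate 2 or tacrolimus replicate 4 left 1 S100 gene under the unadjusted threshold, in each case S100a6.

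**Figure D1:**
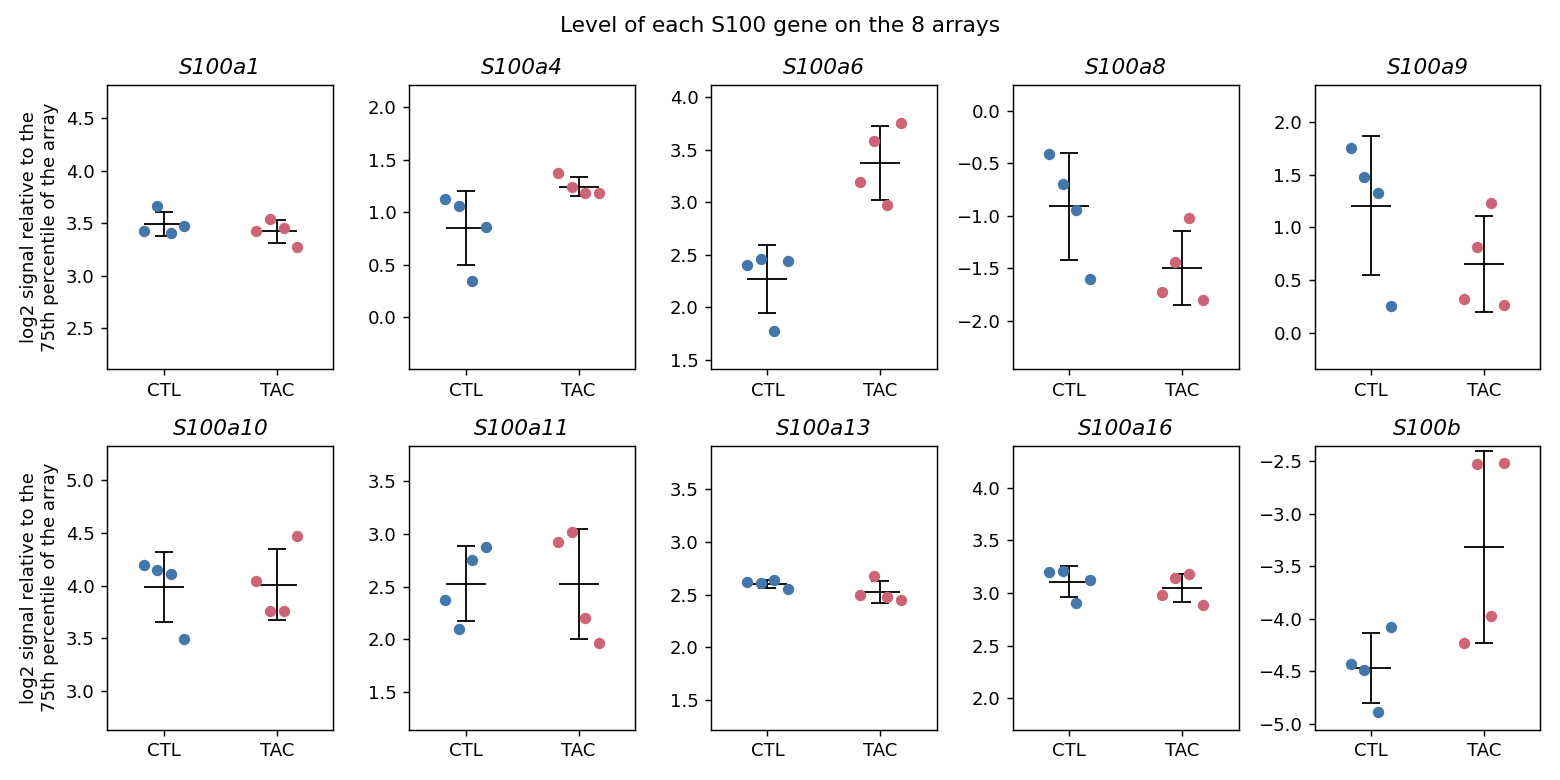
Levels of the 10 S100 genes on each of the 8 arrays, as log2 signal relative to the 75th percentile of the array, with 1 point per array and the mean and SD of each group of 4. The S100a6 points of the tacrolimus arrays, 2.97 to 3.75, all lie above those of the control arrays, 1.78 to 2.46, whereas the groups overlap in S100a8, S100a9 and S100b.

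**Figure D2:**
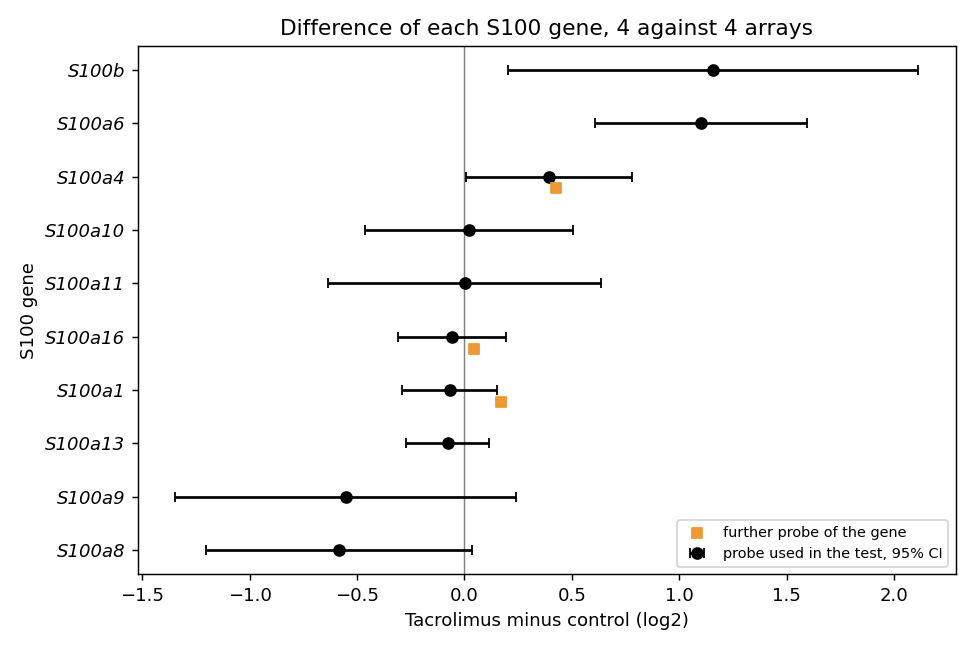
Difference between tacrolimus and control in log2 units for each S100 gene, with the 95% interval of the limma fit. The intervals of S100a6 (0.61 to 1.59), S100b (0.20 to 2.11) and S100a4 (0.01 to 0.78) lie above 0, and the other 7 contain it.

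S100a6, also called calcyclin, is a member known from proliferating fibroblasts and epithelial cells, and it binds annexins and the calcyclin-binding protein Cacybp. Its level was 2.40, 2.46, 1.78 and 2.44 on the control arrays and 3.19, 3.58, 2.97 and 3.75 on the tacrolimus arrays. The lowest tacrolimus array lay above the highest control array, and control replicate 3 stood below the other controls. The group means were 2.27 ± 0.33 (SD, n = 4) and 3.37 ± 0.36 (SD, n = 4). The difference was 1.10 ± 0.22 (SE), with a 95% interval of 0.61 to 1.59, which is a 2.15-fold higher mean (1.52 to 3.02). The limma p was 0.000789 and the adjusted p 0.0728, rank 272 of the 25127 genes. The threshold was passed in 3 of 21 alternatives, among them normexp background correction with the 75th percentile (difference 1.07, limma adjusted p 0.0345) and the trended, robust form of limma's test (adjusted p 0.0493). It was not passed with normexp and quantile normalization (limma adjusted p 0.0580). Over all 21 alternatives the difference stayed between 0.94 and 1.24 and the adjusted p ran from 0.0345 to 0.184.

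S100a4 is known from fibroblasts and leukocytes, where it acts on motility through non-muscle myosin. It read 1.13, 1.06, 0.35 and 0.86 in controls and 1.37, 1.24, 1.18 and 1.18 after tacrolimus. The groups did not overlap, but they were close: the highest control and the lowest tacrolimus array were 1.13 and 1.18. The means were 0.85 ± 0.35 and 1.24 ± 0.09 (SD, n = 4 each), and the difference was 0.39 ± 0.17 (SE; 95% interval 0.01 to 0.78; limma adjusted p = 0.318). The further probe, whose sequence is shown above, read 0.40, 0.22, −0.46 and 0.11 in controls and 0.60, 0.45, 0.43 and 0.51 after tacrolimus, a difference of 0.43 ± 0.18. Both probes therefore gave the same order of groups, and control replicate 3 was the lowest array on each. Without that array the S100a4 difference was 0.23. Its unadjusted p was no longer under 0.05 without control replicate 3 or 4, or without any 1 of the tacrolimus arrays.

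Markers of fibroblasts and macrophages, fixed as lists of 12 genes each, differed in the same direction as S100a6 and S100a4. Of the 12 fibroblast markers, all tested, 1 was called (Col1a2, a chain of type I collagen, 1.14 ± 0.16, limma adjusted p = 0.0462) and 7 did not overlap between groups, each higher after tacrolimus. Over all genes, 0.187% were called higher and 4.35% did not overlap with tacrolimus higher. The median difference of that list was 0.87, against −0.05 over all genes. Pdgfra, the PDGF receptor alpha of fibroblasts, differed by 0.92 ± 0.15 and Col3a1, a fibrillar collagen, by 1.28 ± 0.23, with no overlap in either. The summed linear level of the list, relative to the 75th percentile, was 43.2 to 46.1 in controls and 62.5 to 92.1 in tacrolimus kidneys. Of the 12 macrophage markers, 11 were tested and 0 were called by limma. Of the 11, 8 had an unadjusted p under 0.05 (7.04% of all genes in that direction) and 8 did not overlap (4.35%), all higher, with a median difference of 1.05. Among these, the mannose receptor Mrc1 differed by 1.88 ± 0.31 and the complement genes C1qa and C1qb by 1.32 ± 0.24 and 1.05 ± 0.20. Their summed level was 32.0 to 40.3 in controls and 39.7 to 52.0 after tacrolimus, and no array read Cd163 well above background. The part of either cell type in the S100a6 and S100a4 differences was not tested, and in whole-kidney RNA more cells of a type and more RNA per cell cannot be told apart.

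**Figure D3:**
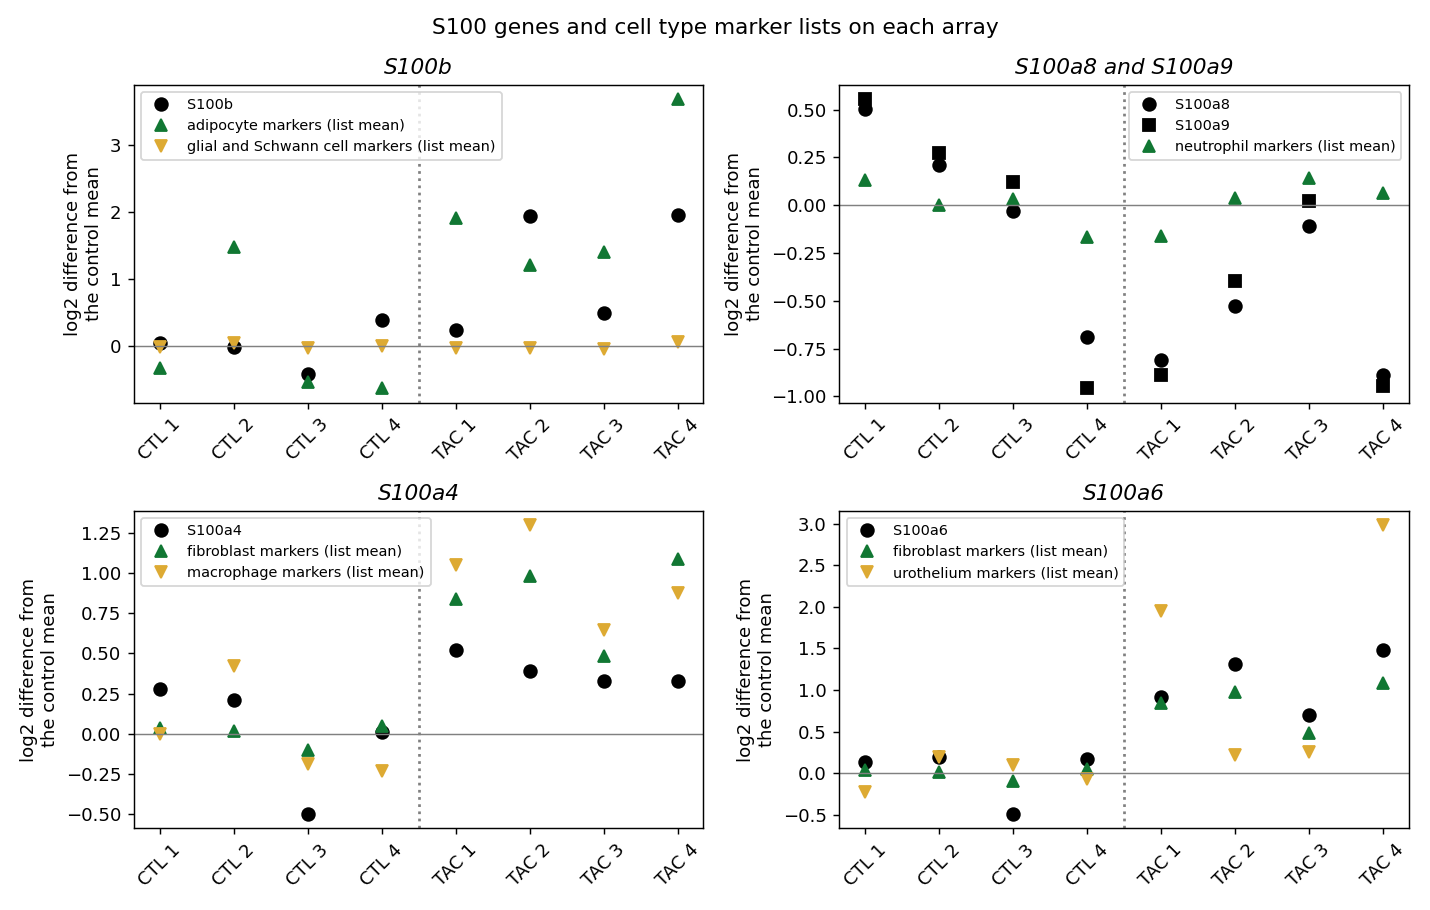
Deviation from the control mean on each array, in log2 units, of S100 genes beside the mean deviation of fixed marker lists. S100b is set beside the adipocyte and glial lists, and S100a8 and S100a9 beside the neutrophil list. S100a4 is set beside the fibroblast and macrophage lists, and S100a6 beside the fibroblast and urothelium lists. The fibroblast list lies between −0.10 and 0.05 in controls and between 0.49 and 1.09 after tacrolimus, while the glial list stays between −0.05 and 0.07 on all 8.

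S100b is best known from glia, where it is a marker of astrocytes and Schwann cells, and it is also made by adipocytes. Its level was −4.43, −4.49, −4.89 and −4.08 in controls and −4.23, −2.53, −3.97 and −2.52 after tacrolimus. Tacrolimus replicates 2 and 4 stood apart from all other arrays, and tacrolimus replicate 1 lay below control replicate 4, so the groups overlapped. The means were −4.47 ± 0.33 and −3.31 ± 0.91 (SD, n = 4 each), and the difference was 1.16 ± 0.42 (SE; 95% interval 0.20 to 2.11; limma adjusted p = 0.253). S100b depended on the background correction: its difference was 0.60 with normexp and 0.56 with normexp and quantile normalization, and 0.75 in the deposited table. Without tacrolimus replicate 2 or 4 it was 0.90 and 0.89, and without control replicate 3 it was 1.02, and none of these passed an unadjusted p of 0.05.

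The marker lists of the cell types in which S100b is best known followed its order of arrays only in part. Of 10 glial and Schwann cell markers, 8 were tested, 0 were called by limma, and 1, with a lower mean after tacrolimus, had an unadjusted p under 0.05. That threshold was passed in the lower direction by 8.42% of all genes. Pmp22 and Mbp, both myelin proteins, differed by 0.19 ± 0.10 and 0.22 ± 0.13. The list's median difference was 0.019, its mean deviation was −0.03 to 0.04 on control arrays and −0.05 to 0.07 on tacrolimus arrays, and its summed level was 18.6 to 19.7 and 17.7 to 26.2. No array read Foxd3 well above background. Of 10 adipocyte markers, 9 were tested, 0 were called and 5 had an unadjusted p under 0.05 (7.04% of all genes in that direction), all higher, with a median difference of 3.11. Retn, the hormone resistin, differed by 3.11 ± 0.87, and the lipid-droplet protein Cidec by 3.42 ± 0.97. Of the 4 control arrays, Retn was well above background on 3, Cidec on 2, the hormone gene Adipoq on 1 and Plin1, which coats the lipid droplet, on none. These 4 of the 5 markers passed the filter through the tacrolimus arrays, so the count and the median describe the list and support nothing. Lep was read well above background by no array. The adipocyte list's mean deviation was −0.32, 1.48, −0.53 and −0.63 on the control arrays and 1.92, 1.22, 1.41 and 3.69 on the tacrolimus arrays. Tacrolimus replicate 4 was the highest array for the adipocyte list and for S100b (3.69 and −2.52), and control replicate 3 was low in both (−0.53 and −4.89). Tacrolimus replicate 2, nearly as high for S100b (−2.53), was the lowest tacrolimus array for the list (1.22). Control replicate 4 was the lowest array for the list (−0.63) but the highest control array for S100b (−4.08). Control replicate 2, high for the adipocyte list, was not high for S100b. Tacrolimus replicate 1, also high for the list, was among the lower S100b arrays. The summed level of the list was 103 to 133 in controls and 47.9 to 154 after tacrolimus, so that its mean over arrays differed in the opposite direction to the median; Lpl, a lipase that the kidney also expresses, was the 1 member of the 9 with a lower mean after tacrolimus (6.16, against 6.72 in controls). The part of fat in the S100b values was not tested. Without control replicate 2 and tacrolimus replicate 4 together, the S100b difference was 0.89 (limma adjusted p = 0.551).

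S100a8 and S100a9, the calgranulins, form the heterodimer calprotectin, an abundant cytoplasmic protein of neutrophils that sequesters zinc and manganese and is released at sites of inflammation. S100a8 read −0.41, −0.70, −0.94 and −1.60 in controls and −1.72, −1.44, −1.02 and −1.80 after tacrolimus. S100a9 read 1.76, 1.48, 1.33 and 0.25 in controls and 0.32, 0.81, 1.23 and 0.26 after tacrolimus. Both genes were highest on control replicates 1, 2 and 3, in that order, next highest on tacrolimus replicates 3 and 2, and low on control replicate 4. The S100a8 means were −0.91 ± 0.51 and −1.49 ± 0.35 (SD, n = 4 each), a difference of −0.58 ± 0.27 (SE; 95% interval −1.20 to 0.04; limma adjusted p = 0.340). The S100a9 means were 1.21 ± 0.66 and 0.65 ± 0.46, a difference of −0.55 ± 0.35 (SE; 95% interval −1.35 to 0.24; limma adjusted p = 0.458). In both genes the control arrays spanned a wider range than the difference between the groups, and control replicate 4 was the lowest of them. Without it the differences were −0.81 for S100a8 and −0.87 for S100a9 (limma adjusted p 0.176 and 0.190). Without control replicate 1 they were −0.41 and −0.37, and without control replicate 2 and tacrolimus replicate 4 together −0.41 and −0.33. With control replicate 4 left out, 5 S100 genes had groups that did not overlap, where 19.2% of all genes did not.

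Of 14 other neutrophil markers, 10 were tested and 0 were called by limma. The mean was lower after tacrolimus in 8 of the 10, as in 15197 of all 25127 genes, and it was higher in 2, Lcn2 and Ltf. Some of the lower means lay close to those of controls, as for Csf3r (−0.0086). At an unadjusted p of 0.05 there was 1 higher and 1 lower, where 7.04% of all genes were higher and 8.42% lower. The median difference of the list was −0.03, against −0.05 over all genes, −0.58 for S100a8 and −0.55 for S100a9. Retnlg, a neutrophil-specific resistin-like gene, was lower by 0.54 on average (−0.54 ± 0.19, limma adjusted p = 0.243). Lcn2, an iron-siderophore binding protein that injured tubules also make, had the opposite sign and differed by 1.17 ± 0.25 (limma adjusted p = 0.0948) with no overlap between groups. Ltf, the iron-binding granule protein lactoferrin, differed by 0.55 ± 0.24 (limma adjusted p = 0.325). The summed level of the list was 121 to 129 in controls and 106 to 141 after tacrolimus, and Ngp, a granule protein, was read well above background by no array. The part of neutrophil number in the S100a8 and S100a9 values was not tested.

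The remaining 5 S100 genes had similar group means, with intervals that set a limit to the differences compatible with these arrays. S100a10, or p11, has lost calcium binding and forms a stable tetramer with annexin A2 at the plasma membrane. It read 4.20, 4.15, 4.11 and 3.49 in controls and 4.04, 3.76, 3.76 and 4.47 after tacrolimus, a difference of 0.022 ± 0.21 (SE; 95% interval −0.46 to 0.51). Control replicate 4 was the lowest array and tacrolimus replicate 4 the highest. S100a11, a partner of annexin A1, read 2.37, 2.10, 2.75 and 2.88 in controls and 2.92, 3.02, 2.20 and 1.96 after tacrolimus. Its arrays spread widely in both groups, which overlapped over nearly the whole range, and the difference was 0.00031 ± 0.28 (95% interval −0.63 to 0.64). The sign of the S100a10 and S100a11 differences turned in 6 of 21 alternatives each.

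S100a13, known for its part in the release of FGF1 from cells, had the tightest values. It read 2.62, 2.61, 2.64 and 2.55 in controls and 2.50, 2.68, 2.48 and 2.45 after tacrolimus, a difference of −0.078 ± 0.08 (SE; 95% interval −0.27 to 0.11). Tacrolimus replicates 1, 3 and 4 lay below every control array, and tacrolimus replicate 2 above them all. S100a1, the S100 protein of cardiac and skeletal muscle, where it acts on the ryanodine receptor and the calcium pump of the reticulum, read 3.43, 3.66, 3.41 and 3.47 in controls and 3.43, 3.54, 3.45 and 3.27 after tacrolimus. The brighter S100a1 probe differed by −0.069 ± 0.10 (95% interval −0.29 to 0.15) and the further one by 0.17 ± 0.15, so the probes disagreed in sign and neither interval left out 0. S100a16, a broadly expressed member, read 3.20, 3.21, 2.90 and 3.12 in controls and 2.98, 3.14, 3.18 and 2.89 after tacrolimus. Its probes also disagreed in sign, at −0.059 ± 0.11 (95% interval −0.31 to 0.19) and 0.04. For S100a1 and S100a16, the sign turned in 4 of 21 alternatives each.

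Along the chromosome 3 cluster, some neighbouring genes differed in opposite directions and others differed alike. S100a4 and S100a6 were the pair higher after tacrolimus, and S100a5, whose probe lies between theirs, 5.68 kb past that of S100a4 and 2.46 kb before that of S100a6, differed by −0.38 ± 0.19 (limma adjusted p = 0.369). S100a3, on the other side of S100a4, differed by −0.11, as did S100a2. The S100a8 and S100a9 probes began 55.6 kb past the S100a6 probe. Their differences, −0.58 and −0.55, were alike and opposite in sign to that of S100a6. S100a14, an epithelial member, differed by −0.87 ± 0.53 (limma adjusted p = 0.445) between probes of S100a13 and S100a16, which differed by less than 0.1. After a gap of 2833 kb, S100a11 and S100a10 stood close to 0. S100a2 was not in the fixed list of other family genes and was added after its value was seen.

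**Figure D4:**
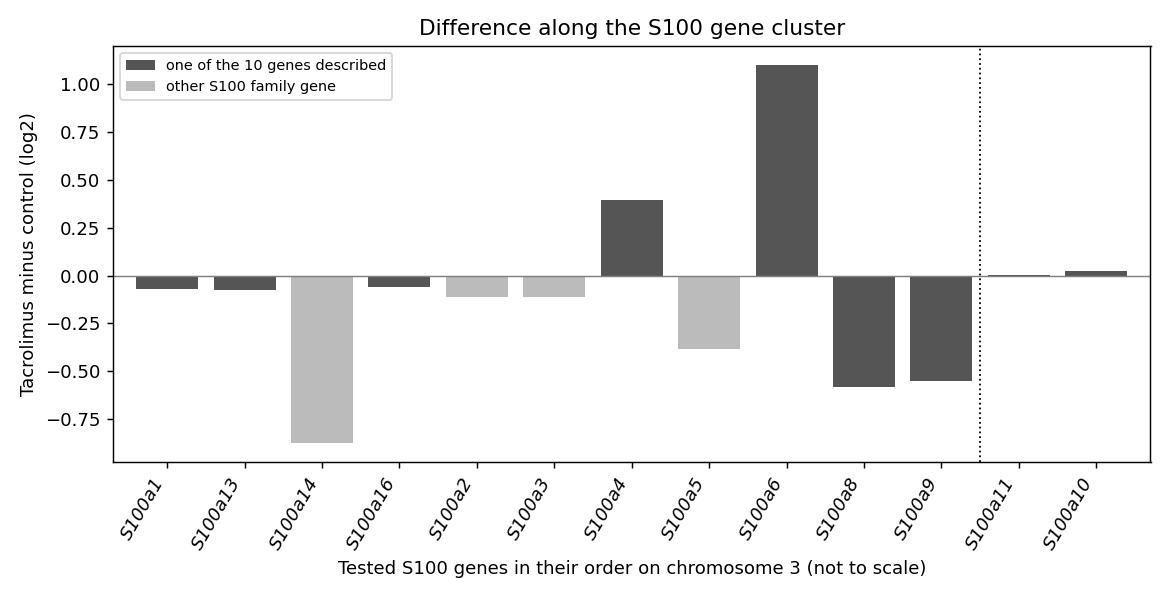
Difference between tacrolimus and control, in log2 units, for the 13 tested S100 genes of chromosome 3 in the order of their mm9 probes, not to scale; dark bars are the S100 genes described here, light bars other family genes, and the dotted line marks the gap of 2833 kb. S100a6 (1.10) and S100a4 (0.39) stand above 0 with S100a5 (−0.38) between them.

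Of the 6 other single S100 genes in the fixed list, 5 were tested, 0 were called by limma and 1 had an unadjusted p under 0.05. That gene was S100g, or calbindin-D9k, a vitamin D-dependent protein that carries calcium through cells of the distal tubule. It read 5.62, 5.83, 5.55 and 4.93 in controls and 6.02, 6.41, 6.25 and 5.96 after tacrolimus, with no overlap. The S100g difference was 0.68 ± 0.20 (SE; limma adjusted p = 0.181), a 1.60-fold higher mean, and 0.73 ± 0.22 on its further probe. S100z differed by 0.078 and was well above background on 2 arrays of each group, and S100a7a on none. Of 7 fused-type genes, which join an S100 domain to long repeats (filaggrin and its relatives), 4 were tested, 0 were called and 0 had an unadjusted p under 0.05.

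Among 28 EF-hand genes outside the family, 25 were tested and 0 were called by limma, with a median difference of −0.0064. At an unadjusted p of 0.05, 3 were higher and 2 lower, where 7.04% of all genes were higher and 8.42% lower. The lowest p was that of Calb1, or calbindin-D28k, the larger calcium carrier of the distal tubule. It read 0.80, 1.46, 1.06 and 1.09 in controls and 1.99, 2.38, 2.79 and 2.21 after tacrolimus. The Calb1 difference was 1.24 ± 0.20 (SE), or 2.36-fold, with a limma adjusted p of 0.0552, and both calbindins thus had non-overlapping groups. Efhd2, an actin-binding protein, differed by 0.62 ± 0.19, Rcn1, a calcium-binding protein of the endoplasmic reticulum, by 0.45 ± 0.16, and Pef1, a penta-EF-hand protein, by −0.22 ± 0.09.

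Of 24 receptors and partners of S100 proteins, 23 were tested and 0 were called by limma, with a median difference of −0.0093. By their unadjusted p, 4 were higher and 1 lower, where 7.04% of all genes were higher and 8.42% lower. Anxa2, the membrane-binding partner of S100a10, read 3.89, 4.06, 3.78 and 4.20 in controls and 4.52, 4.91, 4.38 and 4.50 after tacrolimus. Its groups did not overlap, and the difference was 0.60 ± 0.14 (SE; limma adjusted p = 0.119), whereas that of S100a10 was 0.022. Tlr4, a receptor for S100a8 and S100a9, differed by 0.35 ± 0.11 (limma adjusted p = 0.187), also with no overlap and with a sign opposite to that of its ligands. Ager, which encodes RAGE, was well above background on 2 arrays of each group and differed by 0.10 ± 0.38. Syt1, a calcium sensor of vesicle release that binds S100a13, differed by 0.46 ± 0.16. Atp2a2, the calcium pump of the reticulum that S100a1 binds, differed by −0.36 ± 0.14 with no overlap.

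The profiles closest to those of the leading S100 genes were sought over 17067 tested genes with a gene symbol, by the root mean square difference of the centred log2 levels over the 8 arrays. The nearest to S100a6 were Igsf10 at 0.133, Ccdc116 at 0.172 and the laminin chain Lamb3 at 0.173. Nearest to S100b were Tnfsf10, the ligand TRAIL, at 0.319, the TNF receptor Tnfrsf1b at 0.378 and S100a6 itself at 0.389. For S100a4 they were Stap1 at 0.0966, the myeloid receptor Sirpa at 0.107 and Tnfrsf13b at 0.109. The distances were larger for S100b, but this measure grows with a gene's own spread. The SD in controls and after tacrolimus was 0.33 and 0.91 for S100b, 0.33 and 0.36 for S100a6, and 0.35 and 0.09 for S100a4. The spread over the 8 arrays also holds the group difference, 1.16, 1.10 and 0.39 in that order. The distances therefore do not rank how distinct the 3 profiles are.

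A urothelium list was also measured, since the renal pelvis can enter a whole-kidney sample. Of its 10 markers 8 were tested, and the median difference was 0.95. One gene, or 1 of the 8, was called, the keratin Krt20 of superficial urothelial cells (4.98 ± 0.58, limma adjusted p = 0.0266). Krt20 was well above background on 3 control arrays and Upk3b on 1, so both passed the filter through the tacrolimus arrays. The call and the median therefore describe the list and support nothing. Its mean deviation was −0.22, 0.19, 0.10 and −0.07 on the control arrays and 1.95, 0.22, 0.26 and 2.98 on the tacrolimus arrays. Tacrolimus replicates 1 and 4 stood apart. Krt20 did not share that order, since it was higher on all 4 tacrolimus arrays (−0.75, 0.73, −0.60 and −0.78) than on any control array. Upk3a, a uroplakin, read −4.63 to −3.81 in controls and −1.66, −4.97, −4.35 and 0.54 after tacrolimus, and Krt5, a basal keratin, read −3.90 to −3.62 and −2.42, −3.92, −3.87 and −0.75. By comparison, the highest S100a6 levels were on tacrolimus replicates 4 and 2. The summed level was at most 11.4 in controls and 10.5 to 17.7 after tacrolimus, and the part of urothelium in the S100a6 values was not tested.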

How the data were processed

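Per the file headers, the deposited intensities come from one-colour Agilent arrays and were background-subtracted by the feature extraction software. The deposited series table holds log2 values, and matched the quantile-normalized log2 raw median signal within 5e-09. limma is named in the submitters' processing notes. Here each array's log2 processed signal was set relative to its 75th percentile over 59305 non-control spots, spots of 1 probe were averaged and outlier spots left out. The brightest probe of each gene was used, among probes well above background on at least 4 of 8 arrays. limma 3.58.1 (R 4.3.3; lmFit, eBayes, two-sided) compared the groups, with Benjamini-Hochberg adjustment over 25127 genes and a threshold of 0.05. The code was tested on simulated data. Alternatives covered normalization, background, filter, probe choice, model form and left-out arrays.

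Gene names are those of the array files, updated through RefSeq accessions (28026 probes matched, 1651 renamed). Motifs were sought as exact letters in the array's probe sequences. The S100 genes and all lists were chosen with earlier results of these data known. Named genes were all S100 genes, up to 4 with the lowest p in the partner and EF-hand lists, up to 3 in each cell list, and the 3 nearest profiles of the 3 lowest-p S100 genes. Ager was named besides as the RAGE receptor. An item that the rule would name is not reported here. The number of arrays limits the precision.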

Additional observations from a re-analysis of the deposited data

Results flagged for a closer look

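In 2 cases a single array stood far from the other 3 of its group by Dixon's ratio of gap to range, a rule that chance meets in about 1 in 20 groups. The rule was applied to both groups of each of the 13 probes, so flags can arise by chance alone. For S100a6 it was control replicate 3, at 1.78. For S100a10 it was control replicate 4, at 3.49. Control replicate 3 was also the lowest control array for S100a4 and S100b, and control replicate 4 the lowest for S100a8, S100a9 and S100g.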

How the results depend on the processing

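The count of S100 genes called, 0 by limma, was 1 (S100a6) with normexp and the 75th percentile, with the trended, robust test and with the replicate block, and 0 to 0 when each array was left out in turn. The count with groups that did not overlap, 2, was 1 with median normalization and 2 to 5 with 1 array left out. The count over all genes, 57, was 285 with normexp and the 75th percentile, 131 with normexp and quantile normalization, 180 in the deposited table, 32 with no filter, 151 with probes well above background on all 8 arrays, 37 with every probe on its own, 221 with the trended, robust test and 309 with array weights. It was 103 with the replicate block, 8 without control replicate 2 and tacrolimus replicate 4, and 7 to 56 with 1 array left out. Of these calls 82.5% were higher after tacrolimus, and 68.7% with normexp and quantile normalization. Same-numbered arrays shared a column of the slide and deviated together only in part (correlations 0.156, 0.021, 0.143 and 0.055). The numbers were not taken as pairs, and the block is given only as an alternative. Each of the 4 control arrays correlated best with its own number, and S100a6 had an adjusted p of 0.0461 in limma with the block. S100a6 had an unadjusted limma p under 0.05 in 21 of 21 alternatives, S100b in 17, S100a4 in 11, S100a8 in 8 and S100a9 in 1. Where values moved, the cause was not tested.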
